A study of Homo sapiens with 16 samples.

Results

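The genes described here are the WNT ligands, their receptors and secreted antagonists, and the core of the pathway inside the cell. They were taken as the protein-coding genes whose symbol begins with WNT, FZD, DVL, AXIN, SFRP, DKK or LGR followed by its number, together with LRP5, LRP6, APC, CTNNB1, GSK3A, GSK3B, LEF1, TCF7, TCF7L1, TCF7L2, RNF43 and ZNRF3. Of 19344 genes with a row in all 4 of the authors' comparison tables, 45 met this rule: 12 WNT ligands, 10 frizzled receptors, 2 co-receptors, 4 secreted antagonists, 5 R-spondin receptors or E3 ligases, 3 dishevelled proteins, 6 genes of the destruction complex and β-catenin, and 3 TCF/LEF factors. WNT11 and TCF7 had rows in some tables only, and 10 further genes that GENCODE 29 lists under the same rule were not analysed here. All samples came from U2OS, a human osteosarcoma line that keeps wild-type p53. They received either a control siRNA (siControl) or one that targets RFX7 (siRFX7), and then 10 µM Nutlin-3a or the solvent DMSO alone for 24 h. That gave 4 groups of 4 libraries of poly(A) RNA, 16 in all: siControl with DMSO, siControl with Nutlin-3a, siRFX7 with DMSO and siRFX7 with Nutlin-3a. RFX7 is a winged-helix transcription factor. Nutlin-3a keeps MDM2 off p53, and p53 then accumulates. The labels name no separate cultures or passages, so the p-values measure the spread between these libraries, which may be technical.

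WNT proteins are secreted lipid-modified ligands that bind frizzled receptors together with LRP5 or LRP6. Binding recruits dishevelled and disables the destruction complex of AXIN, APC and GSK3, so that β-catenin (CTNNB1) accumulates and acts with TCF/LEF factors on target genes, some of which, such as AXIN2, RNF43 and LGR5, feed back on the pathway. In bone, WNT signalling is known for driving osteoblast formation, while SFRP proteins and some DKK proteins act outside the cell to restrain it.

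The files hold comparisons between groups of 4 libraries, not values of single libraries, so no spread between libraries can be shown beyond the standard error (SE) that the authors' DESeq2 fit gave each log2 fold change. Group levels were rebuilt from each table's base mean (the normalised read count averaged over the 8 libraries compared) and fold change. They are given as normalised counts per 1000000 of the summed levels, abbreviated CPM. A ratio of such levels can differ from the deposited fold change by up to 0.06 on the log2 scale. RFX7 itself was rebuilt at 62.6 CPM in siControl with DMSO, 76.4 in siControl with Nutlin-3a, 11.2 in siRFX7 with DMSO and 14.3 in siRFX7 with Nutlin-3a. The authors' deposited tables gave RFX7 -2.42 ± 0.07 (log2, ± SE) with siRFX7 in DMSO and -2.37 ± 0.07 in Nutlin-3a. The mesenchymal markers VIM, COL1A1 and SPARC were abundant, and the bone factor RUNX2 had base means of 283 to 432 in the authors' deposited tables. COL1A2 stayed at 13.2 or below there, and BGLAP, the osteocalcin gene, at 4.25 or below, in the Nutlin-3a tables only. Of 5 epithelial markers, 4 had a row. CDH1 was higher with siRFX7 by 0.85 or more and EPCAM by 0.41 or more in both conditions, as log2 fold changes in the authors' deposited tables. KRT8 and KRT18 had 0.09 or less there. Of 10 mesenchymal and bone markers, 7 had a row with siRFX7, and the authors' deposited tables called 4 in each condition: COL1A1 (0.38 and 0.27) and SPARC (0.22 and 0.19) were higher and SPP1 lower (-0.87 and -0.60) in both, ALPL was higher under DMSO (0.28) and VIM lower under Nutlin-3a (-0.12). Their part in the results below was not tested. Leukocyte and endothelial markers were at base means of 8.07 or below in the authors' deposited tables.

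In control cells under DMSO the levels spread widely within most roles. In CPM per kilobase of exon, DVL3 stood highest of the 45 genes at 36.0 in siControl with DMSO. DVL1 followed at 24.8 and the receptor FZD6 at 23.6. The length used is the union of all annotated exons, so this order depends on the transcripts annotated, rare ones included. LRP6 stood at 20.3 per kilobase and LRP5 at 3.99. Among the ligands WNT10B was the highest at 4.19, ahead of WNT3 at 3.0, WNT3A at 2.97, WNT6 at 2.50 and WNT7B at 2.22. WNT5A, the usual ligand of β-catenin-independent signalling, followed at 1.76, and the other ligands stayed at 0.638 or below. Before division by length, WNT5A (13.0 CPM), WNT3 (13.0) and WNT7B (11.2) lay above WNT10B (11.0) in the same group. Of the genes grouped by symbol as secreted antagonists, DKK3 at 20.2 and SFRP1 at 11.4 were abundant, against 0.112 for SFRP4 and 0.0367 for DKK2. The 3 TCF/LEF factors lay within a narrow band, with TCF7L1 at 7.08, LEF1 at 7.03 and TCF7L2 at 6.58. In the destruction complex GSK3B at 21.2, GSK3A at 19.7 and CTNNB1 at 18.4 lay above APC at 9.66, AXIN1 at 7.66 and AXIN2 at 4.62. The tables give no spread for these levels, so such close neighbours are not ordered.

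**Figure D1:**
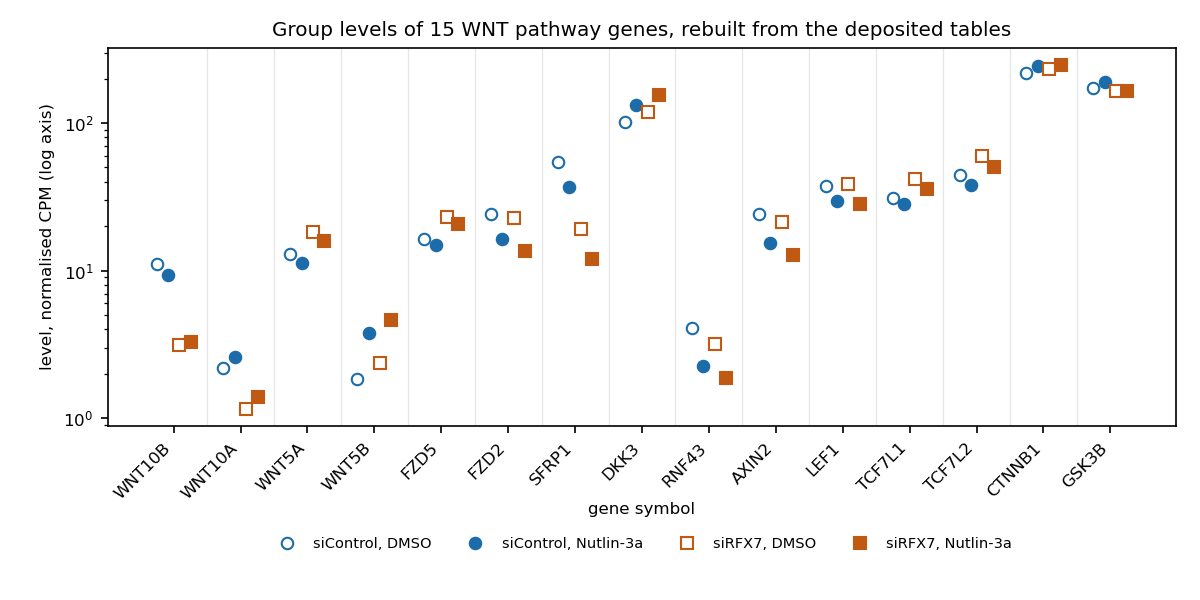
Levels of 15 genes in the 4 groups, in normalised CPM on a log axis; each point is 1 group of 4 libraries, rebuilt from the authors' tables, and no error can be drawn. WNT10B, WNT10A and SFRP1 lie lower in both siRFX7 groups, whereas AXIN2, FZD2 and RNF43 lie lower in both Nutlin-3a groups.

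With siRFX7, the ligand with the highest level per kilobase and an abundant antagonist fell the furthest, while both TCF7L factors, FZD5 and WNT5A rose. WNT10B, a ligand that acts through β-catenin, dropped to 29.7% of its siControl level under DMSO, and SFRP1, which binds WNT proteins and keeps them from frizzled, dropped to 36.5%. In the authors' deposited table for DMSO, 23 of the 45 genes passed an adjusted p of 0.05, 14 higher and 9 lower. The share over all 19511 genes there was 37.4%, 19.9% higher and 17.5% lower. The authors' deposited table for Nutlin-3a called 21 of the 45, 13 higher and 8 lower, against 32.6% of 20335 genes, 17.2% higher and 15.4% lower. Where the base mean was at least 100, the authors' deposited tables called 20 of 33 members under DMSO and 19 of 33 under Nutlin-3a, against 49.7% and 45.3% of all such genes. The median over the members was 0.09 under DMSO and -0.02 under Nutlin-3a on the log2 scale, from the authors' deposited tables, against -0.00 and -0.01 over all genes. Members were thus called in both directions. In bulk RNA, fewer cells that express a gene and less RNA per cell cannot be told apart.

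The siRFX7 comparisons under DMSO and under Nutlin-3a share no library. Both called the same 19 members, each with the same sign: 13 were higher and 6 lower in the authors' deposited tables. Over the 19346 genes of both tables, 26.1% were called in both with the same sign, 14.2% higher and 11.9% lower. At a base mean of at least 100 in both it was 16 of 31 members against 36.2% of such genes. Those higher in both were WNT3A, WNT5A, WNT5B, FZD5, FZD6, LRP6, DKK2, DKK3, ZNRF3, DVL3, GSK3A, TCF7L1 and TCF7L2. Lower in both were WNT10A, WNT10B, FZD1, SFRP1, DVL1 and DVL2. Called only under DMSO were WNT7B, FZD3, FZD4 and CTNNB1, and only under Nutlin-3a WNT6 and GSK3B. None of these 6 showed a difference between the conditions in the test given further below. Across the 45 genes the log2 fold changes of both tables had a Pearson correlation of 0.927, given as a description.

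**Figure D2:**
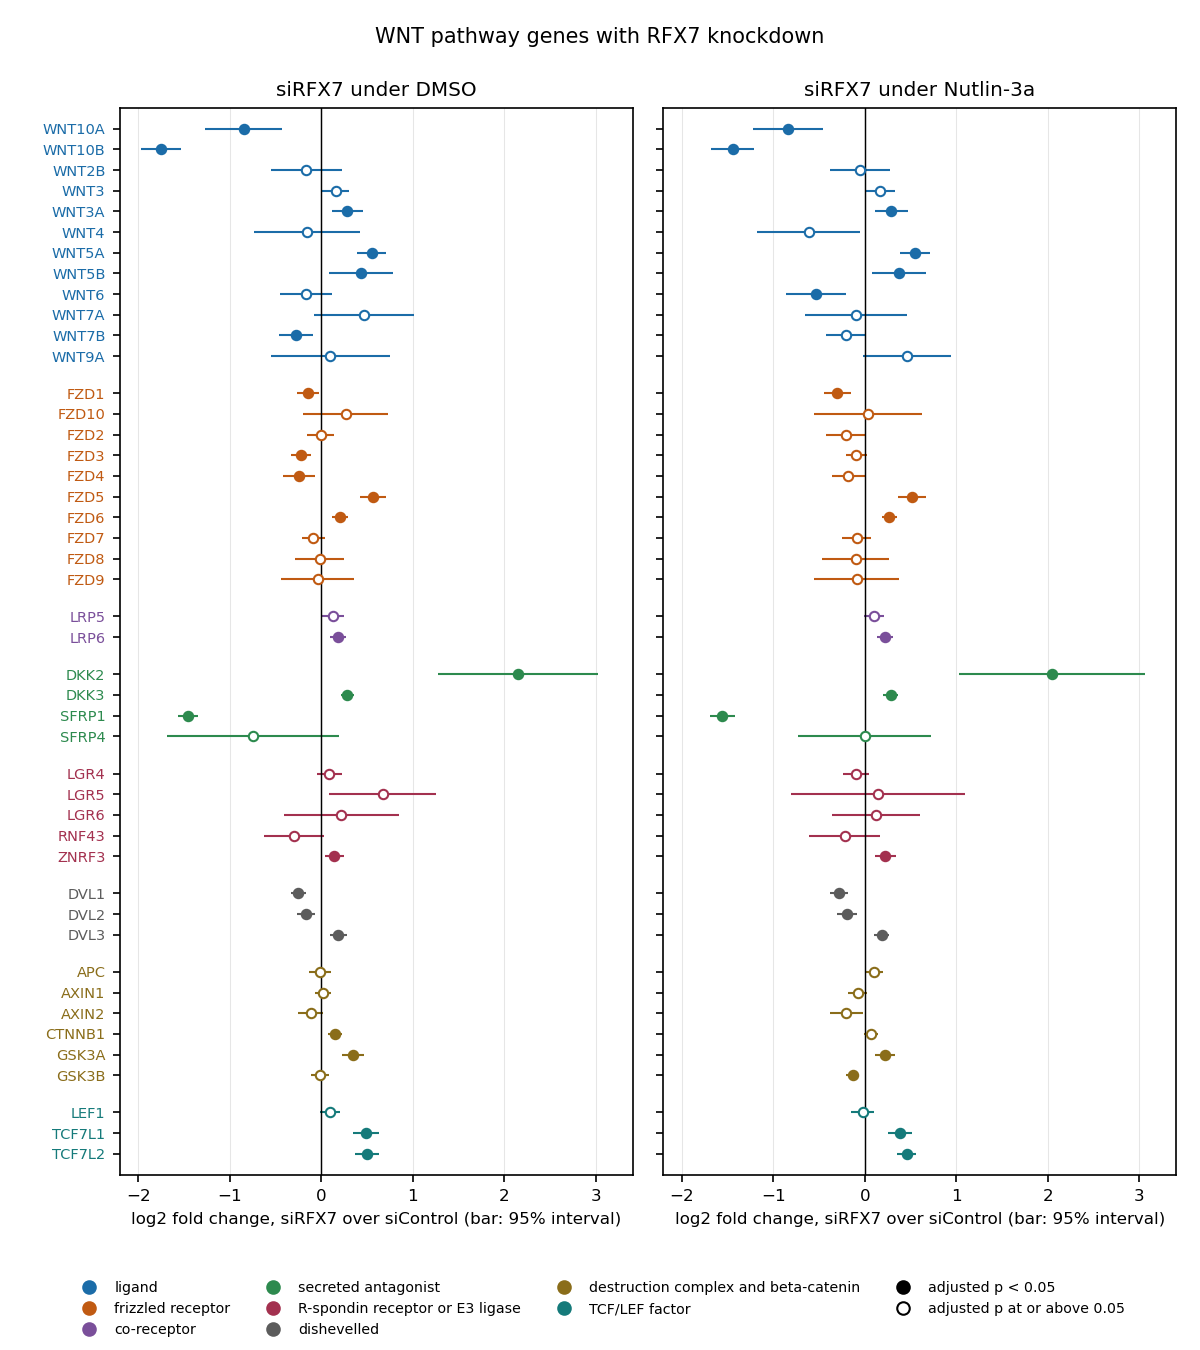
Log2 fold change with siRFX7 over siControl for the 45 genes, under DMSO and under Nutlin-3a, with 95% intervals from the authors' SE; filled points passed an adjusted p of 0.05 and colours mark the roles. WNT10B and SFRP1 lie furthest to the left in both panels, and DKK2 furthest to the right with a wide interval.

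Among the ligands, WNT10B was rebuilt at 11.0 CPM in siControl with DMSO, 9.29 in siControl with Nutlin-3a, 3.12 in siRFX7 with DMSO and 3.28 in siRFX7 with Nutlin-3a. Both siRFX7 groups lay far below both siControl groups. The authors' deposited tables gave WNT10B a log2 fold change of -1.75 ± 0.11 under DMSO (DESeq2 adjusted p = 3.33e-53) and -1.44 ± 0.12 under Nutlin-3a (adjusted p = 9.00e-32). Ranked from the lowest log2 fold change among protein-coding genes of base mean 100 or more, the authors' deposited tables put it at place 3 of 11315 under DMSO and at place 15 of 11379 under Nutlin-3a. WNT10A, the closest relative of WNT10B, was much scarcer, at 2.18, 2.60, 1.16 and 1.399 CPM in the same order of groups. It too was lower in both siRFX7 groups, with log2 fold changes of -0.85 ± 0.21 (DESeq2 adjusted p = 0.000363) and -0.84 ± 0.20 (adjusted p = 0.000151) in the authors' deposited tables. WNT6 lies beside WNT10A on chromosome 2, at chr2:218859821-218874233 against chr2:218880363-218899581, both on the plus strand of GRCh38 in GENCODE 29. In the authors' deposited tables WNT6 had -0.17 ± 0.14 under DMSO (adjusted p = 0.384) and -0.53 ± 0.17 under Nutlin-3a (adjusted p = 0.00698), so it fell under Nutlin-3a only, a contrast between conditions that was itself not called.

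The WNT5 ligands moved the other way. WNT5A was at 13.0 CPM in siControl with DMSO, 11.3 in siControl with Nutlin-3a, 18.3 in siRFX7 with DMSO and 15.95 in siRFX7 with Nutlin-3a. It rose by 0.55 ± 0.08 under DMSO (DESeq2 adjusted p = 1.04e-10) and 0.55 ± 0.08 under Nutlin-3a (adjusted p = 5.11e-10) in the authors' deposited tables. WNT5B, at 1.84, 3.76, 2.37 and 4.67 CPM, passed more narrowly, with 0.43 ± 0.18 (adjusted p = 0.0424) and 0.37 ± 0.15 (adjusted p = 0.0397) there. Its DMSO call was lost when fold changes were centred on the median of well-measured genes (adjusted p = 0.0503). WNT3A was higher by 0.28 ± 0.09 and 0.29 ± 0.09 in the authors' deposited tables. WNT7B was lower under DMSO, at -0.28 ± 0.10 (adjusted p = 0.0137), and had -0.21 ± 0.11 (adjusted p = 0.141) with siRFX7 over siControl in Nutlin-3a, per the authors' deposited tables. WNT2B, WNT3, WNT4, WNT7A and WNT9A passed in neither. Of the 12 ligands, 5 were therefore called in both conditions, 3 higher and 2 lower. Over all genes, 26.1% were called in both with the same sign, 14.2% higher and 11.9% lower.

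Among the receptors, FZD5 changed the most of those called in both. It was at 16.3 and 14.95 CPM in siControl with DMSO and with Nutlin-3a, against 23.1 and 20.5 in the siRFX7 groups. Its log2 fold changes were 0.57 ± 0.07 (DESeq2 adjusted p = 1.22e-13) and 0.51 ± 0.08 (adjusted p = 3.55e-10) in the authors' deposited tables. FZD6, the most abundant frizzled, was higher by 0.20 ± 0.04 and 0.27 ± 0.04 there. FZD1 was lower, at -0.15 ± 0.06 and -0.30 ± 0.07 in the authors' deposited tables. FZD3 and FZD4 passed only under DMSO, at -0.22 ± 0.06 and -0.25 ± 0.09 in the authors' deposited table. The other 5 frizzled genes, FZD2, FZD7, FZD8, FZD9 and FZD10, passed in neither condition. Of the co-receptors, LRP6 was higher by 0.18 ± 0.04 and 0.22 ± 0.04, whereas LRP5 had 0.13 ± 0.06 (adjusted p = 0.0877) and 0.10 ± 0.05 (adjusted p = 0.148) in the authors' deposited tables.

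The secreted antagonists split. SFRP1 was at 54.4 CPM in siControl with DMSO, 36.6 in siControl with Nutlin-3a, 19.0 in siRFX7 with DMSO and 11.9 in siRFX7 with Nutlin-3a, the lowest value of the 4. The authors' deposited tables gave it -1.45 ± 0.05 under DMSO (DESeq2 adjusted p = 4.31e-153) and -1.56 ± 0.07 under Nutlin-3a (adjusted p = 6.41e-110), places 10 and 12 from the lowest among protein-coding genes of base mean at least 100. DKK3, a divergent DKK protein placed in this group by its symbol alone, was at 102, 133, 119 and 156 CPM. It rose by 0.28 ± 0.04 in both conditions in the authors' deposited tables. DKK2, which binds LRP5 and LRP6, had the highest log2 fold change of the 45 genes in both conditions and the lowest level in siControl with DMSO. It was rebuilt at 0.159 and 0.153 CPM in the siControl groups and at 0.672 and 0.610 in the siRFX7 groups. Its log2 fold changes in the authors' deposited tables were 2.15 ± 0.45 (adjusted p = 1.08e-05) and 2.04 ± 0.52 (adjusted p = 0.000474), at base means of only 13.8 and 11.6, so their size is poorly fixed. SFRP4 passed in neither.

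Changes inside the cell were smaller. The dishevelled genes, whose proteins relay the signal from frizzled, moved in opposite directions: DVL1 was lower by -0.25 ± 0.04 and -0.28 ± 0.05, DVL2 by -0.17 ± 0.05 and -0.19 ± 0.05, and DVL3 higher by 0.19 ± 0.05 and 0.18 ± 0.04 in the authors' deposited tables. In the destruction complex, the kinase gene GSK3A was higher by 0.35 ± 0.06 and 0.22 ± 0.05 there. GSK3B, its paralogue, stood at 173, 189, 164 and 166 CPM, and the authors' deposited tables gave it -0.02 ± 0.05 (adjusted p = 0.840) under DMSO and -0.13 ± 0.04 (adjusted p = 0.00273) under Nutlin-3a. CTNNB1 was at 219, 245, 234 and 246 CPM, and the authors' deposited tables gave it 0.15 ± 0.04 (adjusted p = 0.000379) under DMSO and 0.07 ± 0.04 (adjusted p = 0.217) under Nutlin-3a. The scaffold genes showed no call with siRFX7. APC was at 120, 122, 114 and 126 CPM, with -0.02 ± 0.06 and 0.10 ± 0.05, and AXIN1 at 57.3, 53.3, 55.6 and 48.5, with 0.02 ± 0.04 and -0.08 ± 0.05, in the authors' deposited tables. AXIN2, the feedback scaffold that β-catenin induces, had -0.12 ± 0.07 (adjusted p = 0.182) and -0.20 ± 0.09 (adjusted p = 0.0837) there.

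At the end of the pathway, 2 of 3 TCF/LEF factors rose with siRFX7. TCF7L1, mostly a repressor, was at 31.3 and 28.3 CPM in the siControl groups and at 42.1 and 35.5 in the siRFX7 groups, under DMSO and Nutlin-3a in turn. The authors' deposited tables gave it 0.49 ± 0.07 (DESeq2 adjusted p = 4.95e-10) and 0.38 ± 0.07 (adjusted p = 2.82e-07). TCF7L2 was at 44.3 and 38.1 against 60.0 and 50.3 CPM, with 0.50 ± 0.07 (adjusted p = 1.12e-12) and 0.46 ± 0.05 (adjusted p = 2.71e-16) in the authors' deposited tables. For both genes, each siRFX7 group lay above the siControl group of the same treatment. LEF1 had 0.09 ± 0.06 (adjusted p = 0.200) and -0.02 ± 0.06 (adjusted p = 0.828) there. Of the genes for R-spondin receptors and the E3 ligases that remove frizzled from the membrane, ZNRF3 alone was called with siRFX7, at 0.14 ± 0.05 and 0.22 ± 0.06 in the authors' deposited tables, while LGR4, LGR5, LGR6 and RNF43 were not. The ZNRF3 call under DMSO was also lost on median centring (adjusted p = 0.0508).

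Both of the members that fell the furthest with siRFX7 carry a short sequence in a 3′ UTR. Other members that carry it were not called lower in both conditions. The heptamer GTATCTA was picked in earlier work from a scan of these same fold changes, so its share among lower genes is a description and not independent evidence. The sequence of the siRNA is not given in the sources used here. On the sense strand of GENCODE 29 transcripts (GRCh38), the heptamer occurred in a 3′ UTR of 5 of 45 members (11.1%) and of 8.51% of 13731 protein-coding genes in all 4 tables. Among genes of base mean 100 or more, the authors' deposited table for DMSO called 19.9% of those without the heptamer lower. It called 48.1% of genes with 1 site lower and 49.1% of genes with 2 or more. The corresponding shares in the authors' deposited table for Nutlin-3a were 18.2%, 41.8% and 45.8%. The member sites outside SFRP1 are shown 5′ to 3′ with the heptamer in capitals, because WNT10B holds 2 sites and the other carriers did not fall alike. All are on the minus strand: WNT10B at chr12:48965966-48965995 and chr12:48965677-48965706, GSK3B at chr3:119823949-119823978, LRP6 at chr12:12117447-12117476 and WNT7A at chr3:13817043-13817072.
WNT10B first site: ggaagcttaaaGTATCTAcctggaaacagc
WNT10B second site: ccataagatctGTATCTAgaaagagatcac
GSK3B site: caatgtatagtGTATCTAtatagtttggag
LRP6 site: gttatcattacGTATCTAacaagattcaga
WNT7A site: ggagcccttcaGTATCTAggctgtgtctga

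WNT10B had its sites in 3 of 3 transcripts with a 3′ UTR, 563 and 852 bases after the stop codon, and SFRP1 had its site in 2 of 2 transcripts. In GSK3B and LRP6 the site was in 1 of 3 and 1 of 2 transcripts. The carriers did not move together: LRP6 rose in both conditions, GSK3B fell by 0.13 under Nutlin-3a and had -0.02 under DMSO in the authors' deposited tables, and WNT7A had 0.47 ± 0.28 and -0.10 ± 0.28, uncalled. The members that fell without any site were WNT10A, FZD1, DVL1 and DVL2 in both conditions. Without the 5 carriers among the 45 members, the authors' deposited tables called 20 under DMSO, 13 higher and 7 lower. Under Nutlin-3a they called 17, 12 higher and 5 lower. Over all genes, carriers included, the shares were 37.4% under DMSO, 19.9% higher and 17.5% lower. Under Nutlin-3a these were 32.6%, 17.2% and 15.4%. Whether the heptamer has a part in the fall of WNT10B and SFRP1 was not tested. The hexamer GACGTA, picked in the same way, occurred in a 3′ UTR of LGR5, WNT2B and WNT5B, 3 of 45 members, against 5.16% of those 13731 genes. It was in 1 of 3 transcripts with a 3′ UTR in LGR5 and WNT2B and in 1 of 4 in WNT5B. The WNT5B site lay in a 3′ UTR of 129 bases, whereas the longest of that gene had 991. Of these 3 members only WNT5B passed with siRFX7. Among genes of base mean 100 or more, the authors' deposited table for DMSO called 53.5% of those with 1 hexamer site higher. It called 26.5% of genes without the hexamer higher. RefSeq promoter windows of 300 bases (GRCh38.p14) were matched to only 31 of the 45 members. The letters GTTGCCA or their reverse complement TGGCAAC are part of the motif bound by RFX factors. They were in none of 40 windows of these members and in 4.08% of 35116 windows of all genes. At that share few hits would be found in 40 windows, so the absence says little about the members.

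**Figure D3:**
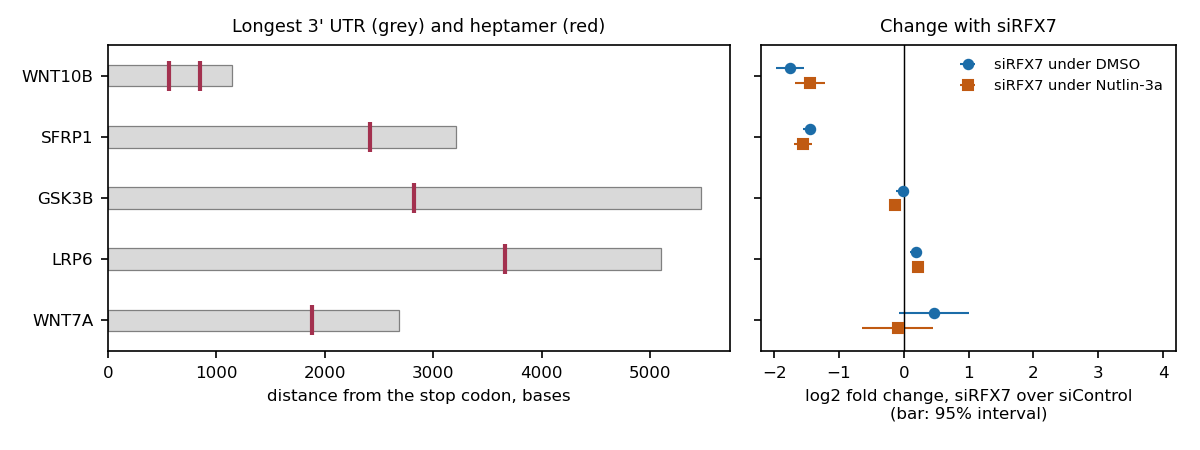
Left, the longest 3′ UTR of each of the 5 members with the heptamer GTATCTA, in bases from the stop codon, with the sites in red; right, their log2 fold changes with siRFX7 and 95% intervals. WNT10B and SFRP1 lie well below 0 in both conditions, whereas LRP6 lies above 0.

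Other genes of the pathway, from a list of 54 symbols that excluded the members, were also called in both directions. Under DMSO the authors' deposited table called 27 of 45 with a row, 19 higher and 8 lower, and under Nutlin-3a also 27 of 45, 18 higher and 9 lower, against 37.4% and 32.6% of all genes. Where the base mean was at least 100 these were 26 of 42 and 25 of 42, against 49.7% and 45.3%, in the authors' deposited tables. WLS, which carries WNT proteins to the cell surface, was lower by -0.60 ± 0.05 and -0.62 ± 0.06, and KREMEN2, a DKK receptor, by -0.77 ± 0.10 and -0.58 ± 0.10, in the authors' deposited tables. LRP4 (-0.54 ± 0.05 and -0.53 ± 0.05) and the corepressor gene TLE2 (-0.65 ± 0.09 and -0.75 ± 0.09) also fell in the authors' deposited tables. Other TLE genes did not move alike: TLE3 had 0.30 ± 0.04 and 0.06 ± 0.05, and TLE1 -0.01 ± 0.05 and -0.23 ± 0.06 there. CXXC4, which encodes an inhibitor that binds dishevelled, fell by 0.46 and 0.64 there. The coactivators of β-catenin rose: PYGO2 by 0.78 ± 0.05 and 0.62 ± 0.06, BCL9 by 0.51 ± 0.06 and 0.50 ± 0.05, and BCL9L by 0.52 ± 0.05 and 0.53 ± 0.05 in the authors' deposited tables. ROR1, a receptor for WNT5A, rose by 0.63 ± 0.09 and 0.55 ± 0.09 there. Of other receptor genes on the list, ROR2 had 0.18 ± 0.07 and 0.06 ± 0.08, the second uncalled. RYK fell by 0.39 ± 0.04 and 0.34 ± 0.05 there. WLS, LRP4, TLE2 and ROR1 carry the heptamer in a 3′ UTR, whereas KREMEN2 and CXXC4 do not. PYGO2 and BCL9L carry the hexamer and BCL9 does not. A list of 15 β-catenin targets overlaps the members in AXIN2, LEF1, RNF43, ZNRF3 and LGR5, and holds TCF7. With siRFX7, 11 of its genes had a row, and the authors' deposited tables called 4 of them in each condition, against 37.4% and 32.6% of all genes. Of the 6 measured targets outside the WNT rule (NKD1, NOTUM, TNFRSF19, MYC, CCND1 and CD44), the authors' deposited tables called 3 under DMSO, 2 higher and 1 lower, and 3 under Nutlin-3a, 1 higher and 2 lower.

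With Nutlin-3a, most of the changed members fell, among them the feedback genes AXIN2, RNF43 and LGR5, all 3 TCF/LEF factors and the receptors FZD1, FZD2 and FZD7. LRP5, DKK3 and a few scarce ligands rose. In siControl the authors' deposited table called 26 of the 45 genes, 7 higher and 19 lower, against 37.9% of 23353 genes, 18.3% higher and 19.6% lower. In siRFX7 the authors' deposited table called 29, 8 higher and 21 lower, against 39.1% of 21382 genes, 18.7% higher and 20.3% lower. At a base mean of at least 100, the authors' deposited tables called 22 of 34 members in siControl, 4 higher and 18 lower, against 56.3% of such genes, 24.7% higher and 31.6% lower. In siRFX7 those members numbered 19 of 29, 3 higher and 16 lower, in the authors' deposited table, against 56.3%, with 24.8% higher and 31.5% lower. The members' median log2 fold change was -0.14 in siControl and -0.15 in siRFX7 from the authors' deposited tables, against 0.01 and 0.01 over all genes.

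The Nutlin-3a comparisons in siControl and in siRFX7 also share no library. Both called the same 23 members with the same sign, 6 higher and 17 lower in the authors' deposited tables. Over the 21339 genes of both tables, 31.8% were called in both with the same sign, 14.8% higher and 17.0% lower. At a base mean of at least 100 in both it was 17 of 29 members, 2 higher and 15 lower, against 46.8%, 19.9% and 26.9% of such genes. Higher in both were WNT2B, WNT5B, WNT9A, LRP5, DKK3 and LGR6. Those lower in both were WNT5A, WNT7B, FZD1, FZD2, FZD7, LRP6, SFRP1, LGR5, RNF43, DVL1, DVL2, AXIN1, AXIN2, GSK3A, LEF1, TCF7L1 and TCF7L2. WNT10B, ZNRF3 and CTNNB1 passed only in siControl, and WNT6, FZD5, FZD6, FZD8, FZD10 and SFRP4 only in siRFX7. Across the 45 genes the correlation between both sets of log2 fold changes was 0.915, as a description.

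**Figure D4:**
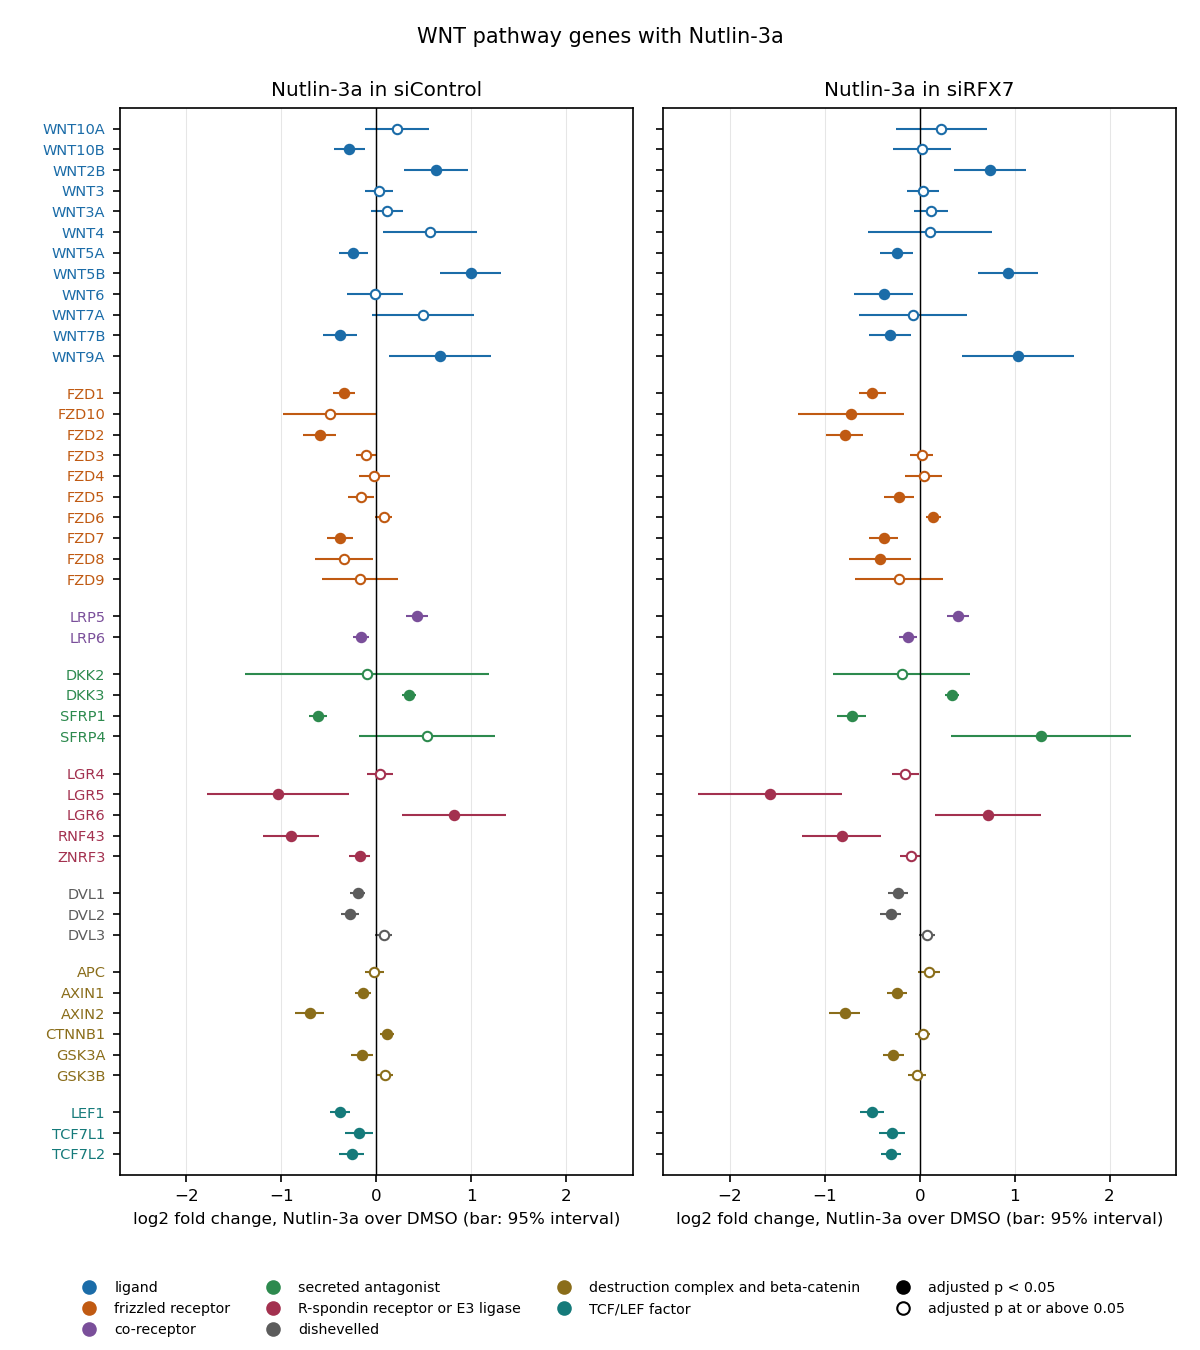
Log2 fold change with Nutlin-3a over DMSO for the 45 genes, in siControl and in siRFX7, with 95% intervals from the authors' SE; filled points passed an adjusted p of 0.05 and colours mark the roles. AXIN2, RNF43, LGR5, FZD2 and SFRP1 lie to the left of 0 in both panels, and WNT5B, WNT2B and WNT9A to the right.

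The feedback genes AXIN2, RNF43 and LGR5 fell with Nutlin-3a whichever siRNA was present. AXIN2 was at 24.2 CPM in siControl with DMSO and 21.4 in siRFX7 with DMSO, against 15.3 and 12.8 with Nutlin-3a. The authors' deposited tables gave it -0.70 ± 0.08 in siControl (DESeq2 adjusted p = 4.22e-18) and -0.79 ± 0.08 in siRFX7 (adjusted p = 1.43e-20). RNF43, an E3 ligase that takes frizzled off the cell surface, was at 4.11 and 3.19 CPM with DMSO against 2.27 and 1.87 with Nutlin-3a. Its log2 fold changes were -0.90 ± 0.15 (adjusted p = 2.43e-08) and -0.82 ± 0.21 (adjusted p = 0.000480) in the authors' deposited tables. LGR5, an R-spondin receptor, was barely detected, at 0.595, 0.296, 0.913 and 0.315 CPM in the order siControl DMSO, siControl Nutlin-3a, siRFX7 DMSO and siRFX7 Nutlin-3a. It had -1.04 ± 0.38 (adjusted p = 0.0199) and -1.58 ± 0.39 (adjusted p = 0.000212) in the authors' deposited tables, at base means of 15.7 and 17.3. LGR6 was as scarce and moved the opposite way, at 0.649, 1.18, 0.725 and 1.23 CPM, with 0.82 ± 0.28 (adjusted p = 0.0104) and 0.72 ± 0.28 (adjusted p = 0.0319) in the authors' deposited tables. ZNRF3, the relative of RNF43, had -0.18 ± 0.06 (adjusted p = 0.00504) in siControl and -0.10 ± 0.06 (adjusted p = 0.194) in siRFX7 there. LGR4 passed in neither.

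At the cell surface, FZD2 fell the most of the frizzled genes called in both. It was at 24.0 and 22.9 CPM with DMSO and at 16.3 and 13.6 with Nutlin-3a, with -0.60 ± 0.09 in siControl (DESeq2 adjusted p = 1.23e-10) and -0.79 ± 0.10 in siRFX7 (adjusted p = 7.32e-15) in the authors' deposited tables. FZD1 had -0.34 ± 0.06 and -0.50 ± 0.07, and FZD7 -0.38 ± 0.07 and -0.38 ± 0.08, in the authors' deposited tables. FZD5, FZD8 and FZD10 passed as lower and FZD6 as higher in the siRFX7 table alone, but each had the same sign in siControl in the authors' deposited tables, and none differed between siRNAs in the test of that difference. The co-receptors moved apart. LRP5 rose by 0.43 ± 0.06 and 0.40 ± 0.06, and LRP6 had -0.16 ± 0.04 and -0.12 ± 0.05, in the authors' deposited tables. SFRP1 fell again, by 0.61 ± 0.05 in siControl (adjusted p = 7.23e-35) and 0.72 ± 0.08 in siRFX7 (adjusted p = 5.05e-19) in the authors' deposited tables. It was therefore lower with either treatment and lowest with both. DKK3 rose by 0.34 ± 0.04 in both of the authors' deposited tables and was higher with either treatment. SFRP4, at base means of 17.8 and 11.2, had 0.54 ± 0.37 (adjusted p = 0.269) in siControl and 1.28 ± 0.48 (adjusted p = 0.0233) in siRFX7 in the authors' deposited tables.

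Among the ligands, WNT5B rose with Nutlin-3a by 0.99 ± 0.16 in siControl (DESeq2 adjusted p = 1.01e-08) and 0.93 ± 0.16 in siRFX7 (adjusted p = 9.13e-08) in the authors' deposited tables. WNT5A, which rose with siRFX7, had -0.24 ± 0.08 and -0.24 ± 0.09 with Nutlin-3a there. The paralogues thus moved in the same direction with siRFX7 and in opposite directions with Nutlin-3a. WNT2B was at 2.27, 3.63, 1.94 and 3.37 CPM in the order of groups given above, with 0.63 ± 0.17 (adjusted p = 0.00103) and 0.74 ± 0.19 (adjusted p = 0.000527) in the authors' deposited tables. WNT9A, at 0.671, 1.09, 0.685 and 1.44 CPM, had 0.67 ± 0.27 (adjusted p = 0.0391) and 1.03 ± 0.30 (adjusted p = 0.00222) there. WNT11, outside the 45 genes because it had no row for siRFX7 under DMSO, had 1.56 ± 0.42 and 1.67 ± 0.52 in the authors' deposited tables, at base means of 14.98 and 9.51. WNT7B had -0.38 ± 0.09 and -0.31 ± 0.11 in the authors' deposited tables. WNT10B fell by 0.28 ± 0.08 in siControl (adjusted p = 0.00217), while the authors' deposited table gave it 0.02 ± 0.16 (adjusted p = 0.931) in siRFX7, where its level was already 3.12 CPM. Most risers were scarce: of the ligands higher in both, each stood at 2.27 CPM or below in siControl with DMSO.

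Inside the cell, Nutlin-3a gave DVL1 -0.20 ± 0.04 and -0.23 ± 0.05 and DVL2 -0.28 ± 0.05 and -0.31 ± 0.06 in the authors' deposited tables, so both were lower with either treatment. DVL3 passed in neither Nutlin-3a table. AXIN1 had -0.14 ± 0.04 (adjusted p = 0.00298) and -0.24 ± 0.05 (adjusted p = 2.78e-05), and GSK3A -0.15 ± 0.06 and -0.28 ± 0.06, in the authors' deposited tables. CTNNB1 rose by 0.12 ± 0.04 (adjusted p = 0.00578) in siControl and had 0.03 ± 0.04 (adjusted p = 0.638) in siRFX7 there. APC, with -0.02 ± 0.05 and 0.10 ± 0.06, and GSK3B, with 0.09 ± 0.04 and -0.03 ± 0.05, were not called in the authors' deposited tables. The TCF/LEF genes all fell: LEF1 by 0.38 ± 0.06 and 0.50 ± 0.07, TCF7L1 by 0.19 ± 0.07 and 0.29 ± 0.07, and TCF7L2 by 0.26 ± 0.07 and 0.30 ± 0.06 in the authors' deposited tables. The calls of TCF7L1 (adjusted p = 0.0812) and GSK3A (adjusted p = 0.0847) in siControl, and of LRP6 (adjusted p = 0.0990) and WNT6 (adjusted p = 0.0638) in siRFX7, were lost when fold changes were centred on the median of well-measured genes. TCF7L1 and TCF7L2 were thus higher with siRFX7 and lower with Nutlin-3a.

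The wider pathway list was more evenly split with Nutlin-3a, at 25 of 47 called in siControl (14 higher and 11 lower) and 27 of 46 in siRFX7 (14 higher and 13 lower) in the authors' deposited tables, against 37.9% and 39.1% of all genes. At a base mean of at least 100 it was 25 of 43 and 26 of 42, against the 56.3% of such genes that the authors' deposited tables called in either siRNA group. PORCN, which attaches the lipid to WNT proteins, rose by 0.51 ± 0.07 and 0.38 ± 0.08, and the R-spondin gene RSPO4 by 0.44 ± 0.06 and 0.57 ± 0.09, in the authors' deposited tables. The planar polarity genes PRICKLE1 (-0.59 ± 0.08 and -0.47 ± 0.09) and PRICKLE2 (0.54 ± 0.07 and 0.38 ± 0.07) moved apart there. CELSR1, another planar polarity gene, had 0.49 ± 0.24 (adjusted p = 0.104) and 1.30 ± 0.24 (adjusted p = 4.41e-07) in the authors' deposited tables. Of 12 listed β-catenin targets with a row, the authors' deposited tables called 9 in siControl, 2 higher and 7 lower, and 8 in siRFX7, 1 higher and 7 lower. Over all genes the shares were 37.9% in siControl, 18.3% higher and 19.6% lower, and 39.1% in siRFX7, 18.7% higher and 20.3% lower. At a base mean of at least 100 the share was 56.3% in each. Most of the lower target calls are the members AXIN2, RNF43, LGR5 and LEF1 described above. Outside the WNT rule the authors' deposited tables called 4 of 6 in siControl, 2 higher and 2 lower, and 4 of 6 in siRFX7, 1 higher and 3 lower, beside the same shares. NKD1 had -0.36 ± 0.08 and -0.34 ± 0.09 and NOTUM, which strips the lipid from WNT proteins, -0.41 ± 0.07 and -0.42 ± 0.07 there. With siRFX7 the authors' deposited tables gave NKD1 -0.43 ± 0.08 and -0.41 ± 0.09, whereas NOTUM had -0.04 ± 0.06 and -0.06 ± 0.07 and was not called. NKD1 carries the heptamer.

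The last comparison asks whether siRFX7 altered the response of these genes to Nutlin-3a. The difference of the responses was the log2 fold change with Nutlin-3a in siRFX7 minus that in siControl. None of the 45 genes was called in this test (normal test on both DESeq2 estimates with Benjamini-Hochberg adjustment), against 0.937% of 21339 genes, and 0 had an unadjusted p under 0.05. The smallest unadjusted p was 0.0584, for LGR4 (adjusted p = 0.831). The differences ran from -0.56 for WNT7A to 0.74 for SFRP4, both scarce, and 29 of 45 were below 0, with a median of -0.04 against -0.00 over all genes. Among the 31 members whose base mean, averaged over both Nutlin-3a tables, reached 100, the differences lay between -0.37 and 0.31. Their 95% intervals reached no further than -0.80, for WNT6, and 0.66, for WNT10B. WNT10B had the difference of 0.31 ± 0.18 (adjusted p = 0.899), so the intervals leave room for sizeable differences in single genes. In simulated data the same test found 18.5% of differences of 0.25, 77.5% of 0.5 and 98% of 1, set in 200 genes whose base mean was at least 100 in siControl. DKK3, with one of the most precise values, had a difference of -0.00 ± 0.05 and a 95% interval from -0.11 to 0.10. For DVL3 the difference was -0.00 ± 0.06, with an interval from -0.13 to 0.12.

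**Figure D5:**
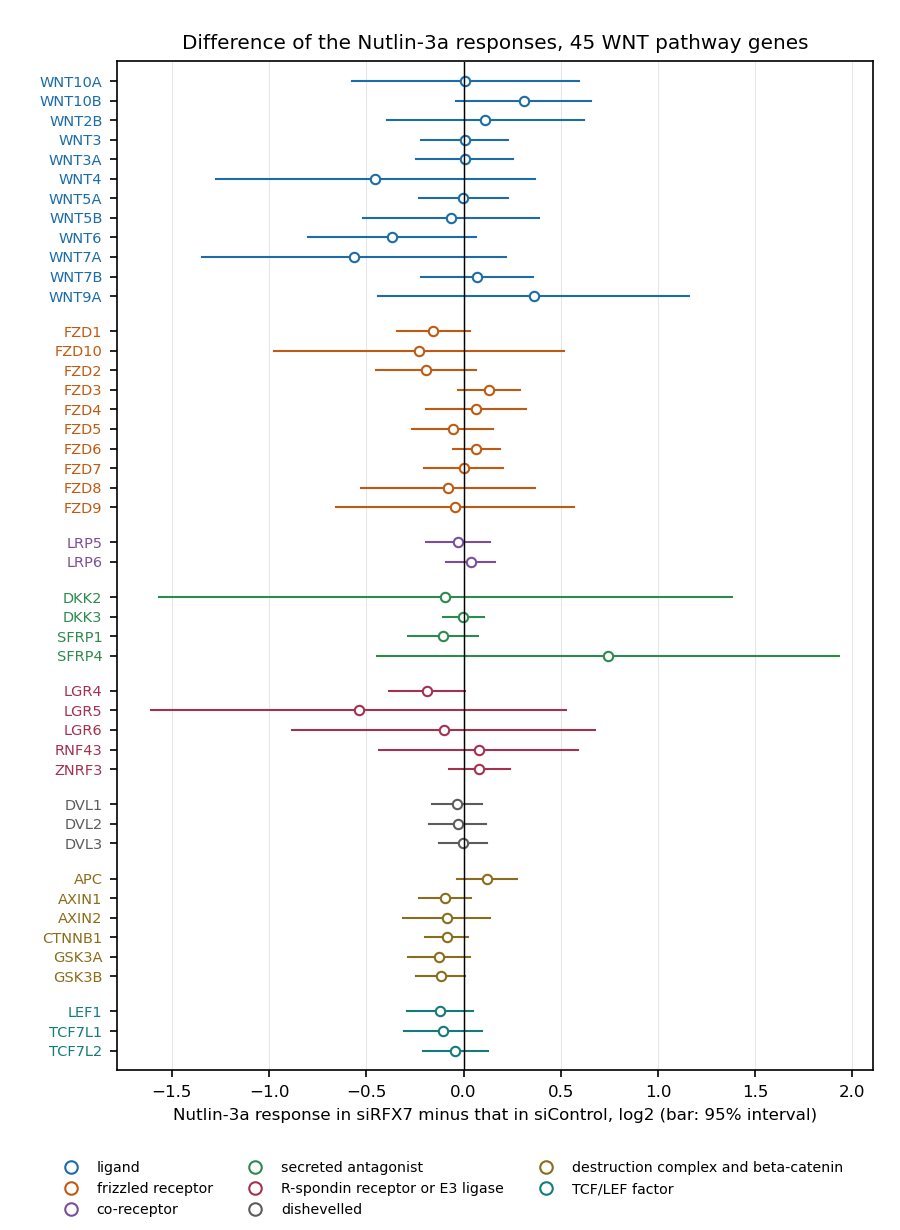
Nutlin-3a response in siRFX7 minus that in siControl, on the log2 scale, for the 45 genes with 95% intervals; open points did not pass an adjusted p of 0.05 and colours mark the roles. No gene passed, and the widest intervals belong to the scarce genes DKK2, SFRP4 and LGR5.

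Outside the members, the same test called 1 of 46 genes of the wider pathway list, the corepressor gene TLE3. Of 12 listed β-catenin targets it called 3, CCND1, CD44 and MYC, which are among the 6 outside the WNT rule. The share over all 21339 genes was 0.937%. These 3 targets had base means of 9200 or more in both Nutlin-3a comparisons, and no share for genes of such base means was computed. The other listed targets with a row, AXIN2, LEF1, RNF43, NKD1 and NOTUM among them, were not called. All 4 called differences were below 0. CCND1, which encodes cyclin D1, rose with Nutlin-3a by 0.26 ± 0.04 in siControl and had -0.08 ± 0.04 in siRFX7 in the authors' deposited tables. TLE3 had -0.21 ± 0.04 and -0.46 ± 0.05 there. None of these 4 genes carries the heptamer.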

How the data were processed

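Poly(A) RNA of U2OS cells was sequenced from stranded libraries, 16 in 4 groups of 4, per the labels' protocols. The submitters' processing notes name the build hg38, bcl2fastq 2.19.1.403, Trimmomatic 0.39, cutadapt 2.10, FastQC 0.11.9, SAMtools 1.10, Picard, featureCounts 1.6.5 and DESeq2 1.20.0. The aligner, the gene annotation and the strand setting of the counting are not given in the sources used here, so reads of genes that overlap on opposite strands, or of close paralogues, may be shared. The files were the authors' 4 deposited DESeq2 comparisons of 2 groups each, holding no value of a single library. Depth per library is therefore unknown; the summed base means ran from 27946400 to 35311100.

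The base mean is a signal, the mean normalised read count that the authors computed over a comparison's libraries. The log2 fold changes, their SE and the adjusted p-values (Benjamini-Hochberg over each table) are the authors' deposited values. The Wald statistic, a deposited score, served for checks only. Directions were settled from the signs of RFX7, CDKN1A and MDM2 and from the identity of both differences between tables (correlation 0.9999 over 19344 genes). A call is an adjusted p under 0.05, as deposited.

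Computed here, with Python 3.11.15, pandas 2.3.3, numpy 2.4.6, scipy 1.17.1 and matplotlib 3.10.9, were the group levels, the difference of the Nutlin-3a responses, and the motif counts. A group's level came from the base mean and the fold change of each of its 2 tables, which differed by a median of 0.0704% and at most 1.00% over the members, and was scaled to 1000000 (CPM) of the sum over 19344 genes. Exon length, for levels per kilobase, was the union of GENCODE 29 exons, and all 45 members matched by identifier and symbol. The difference took the root of the summed squared SE, a normal p (two-sided) and Benjamini-Hochberg adjustment over 21339 genes. It was also run on simulated data drawn with the deposited SE, which cannot check those SE.

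Full values were given for members called in both siRFX7 tables with the same sign and at least 0.3 in both, for those called in both Nutlin-3a tables with at least 0.5, and for CTNNB1, APC, GSK3B, AXIN1 and AXIN2. Of the wider pathway list, genes called with at least 0.5 in any table were named. NKD1, NOTUM, ROR2, RYK, TLE1 and TLE3 were chosen after their values were seen. The members and the lists were chosen with earlier results of these data known. Alternatives were a threshold of 0.01, a minimum log2 change of 0.25, a base mean of at least 100, median centring, members of each table alone, other adjustments of the difference, and, added after seeing the data, leaving out members with the heptamer.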

Additional observations from a re-analysis of the deposited data

Results flagged for a closer look

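For 4 genes near the pathway, but none of its 45 members, the response to Nutlin-3a differed between siRFX7 and siControl in a test of the difference itself (normal test on both DESeq2 estimates, Benjamini-Hochberg adjustment over 21339 genes). For CCND1 the difference was -0.33 ± 0.05 (adjusted p = 4.40e-07), for CD44 -0.27 ± 0.07 (adjusted p = 0.0149), for TLE3 -0.24 ± 0.07 (adjusted p = 0.0318) and for MYC -0.21 ± 0.06 (adjusted p = 0.0410). CD44 rose with Nutlin-3a by 0.53 ± 0.04 in siControl and 0.26 ± 0.05 in siRFX7, and MYC had -0.06 ± 0.04 and -0.27 ± 0.04, in the authors' deposited tables.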

How the results depend on the processing

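No paired analysis was possible because the tables hold no value of a single library, and leaving out each replicate in turn was not run for the same reason. Of 69 alternative values of the counts, 59 stayed within 1.5 times the reported count, and of 280 values for single genes 264 kept their direction and call. Part of this was fixed in advance. At an adjusted p of 0.01 the values for single genes were unchanged. No direction could change there, and no uncalled gene could gain a call. Requiring a log2 change of at least 0.25 left 14 of 23 members called with siRFX7 under DMSO, and for the wider pathway list 17 of 27 with siRFX7 under DMSO, 17 of 27 under Nutlin-3a, 13 of 25 with Nutlin-3a in siControl and 16 of 27 in siRFX7. It left 2 of 4 listed β-catenin targets with siRFX7 in each condition. A base mean of at least 100 left 19 of 29 members with Nutlin-3a in siRFX7. At an adjusted p of 0.01, the difference of the responses called 0 of the pathway list in place of 1 (TLE3) and 1 of the β-catenin targets in place of 3. When the statistics of the difference were divided by their robust SD, 1 member had an unadjusted p under 0.05 and 0 were called. Median centring turned APC with Nutlin-3a in siControl from -0.02 to 0.00537, uncalled in both, gave GSK3B a call there (0.12, adjusted p = 0.0214), ended the calls of WNT5B, ZNRF3, GSK3A, TCF7L1, LRP6 and WNT6 in 1 table each, and shifted all genes by 0.03 or less. These changes follow from the stricter criteria or the shift itself. Base means under 100 limit 11 to 16 members in each table.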
